A study of Homo sapiens with 9 samples.

Results

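Mitosis genes are the genes whose products build the spindle, attach chromosomes to it, pull the sister chromatids apart and divide the cell. A set of 45 such genes was followed here on 9 one-colour 3D-Gene oligonucleotide arrays of RKO, a human colorectal cancer cell line. The genes were matched by current or earlier symbol to the platform annotation, and 44 of the 45 had a probe. KIF4A, a chromosome-bound kinesin, had none. Of the 44, CIT, a midbody kinase, was not above background on any array (raw spot intensity 32.4 to 48.1, against detection limits of 35.4 to 54.3), and the other 43 were detected on all 9 arrays. They are described among 16068 kept features, of which 13388 carried a gene symbol. They are ordered here in 9 function groups.

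All 9 arrays came from RKO cells in which DICER was disrupted at exon 5, the negative control included. DICER is the enzyme that cuts precursor hairpins into mature miRNAs. The cells received double-stranded RNA oligonucleotides by lipofection, and total RNA was taken after 48 h. The negative control was a group of its own, and the other 8 groups were the native and the methylated oligonucleotide of miR-200c, of miR-21, of let7a and of miR-17, with 1 array per group. The design text names the effect of RNA modification on miRNAs as the question, and the labels name neither the strand of the oligonucleotide nor the methylated base. No label says whether the disrupted line is a single clone.

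Mitotic genes are switched on together late in the cell cycle, in G2 and M, and are kept low in resting cells and in G1. Their promoters are bound by the DREAM repressor complex in resting cells and by MYBL2 and FOXM1 with the MuvB core in dividing cells, through an element called the cell cycle genes homology region (CHR), often close to CCAAT boxes that bind NF-Y. A miRNA lowers mRNAs mainly by pairing of its seed, bases 2 to 8, with sites in their 3′ untranslated regions. miR-17 and miR-21 are known as growth-promoting miRNAs, let-7 as a growth-restraining family and miR-200c for keeping cells epithelial by lowering ZEB1 and ZEB2.

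The mature sequences of the 4 miRNAs are shown because the oligonucleotides were named after them, with the seed in capitals. They are RefSeq entries (GRCh38.p14) of the arm usually meant by the name, at chr12:6963742-6963764 (+) for miR-200c-3p, chr17:59841273-59841294 (+) for miR-21-5p and chr13:91350618-91350640 (+) for miR-17-5p. let-7a-5p has 3 loci, of which the entry shown is at chr9:94175962-94175983 (+). The 4 seeds differ from each other.
hsa-miR-200c-3p: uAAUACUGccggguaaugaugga
hsa-miR-21-5p: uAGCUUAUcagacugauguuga
hsa-let-7a-5p: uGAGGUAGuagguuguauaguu
hsa-miR-17-5p: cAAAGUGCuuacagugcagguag

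A sequence feature that the choice of genes did not use was then looked up in RefSeq promoter windows (GRCh38.p14), 300 bases that run from 250 before to 50 after a gene's start. A window was available for 38 of the 45 genes. CHR was taken as TTTGAA or TTCGAA and the NF-Y box as CCAAT, both on either strand, and neighbouring matches of the 2 motifs may share an end base. CHR was found in 27 of the 38 genes, or 71.1%, against 15.8% of 10839 kept named genes with a window and 19.5% of all 27305 genes in the table. CCAAT was found in 30 genes, or 78.9%, against 42.7% and 39.7%. Both were found in 23 mitosis genes, or 60.5%, against 6.63% and 7.85%. Of 33 DNA replication and S phase genes with a window, 6.06% held CHR and 63.6% held CCAAT. A match of letters is a description and not a bound site.

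**Figure D1:**
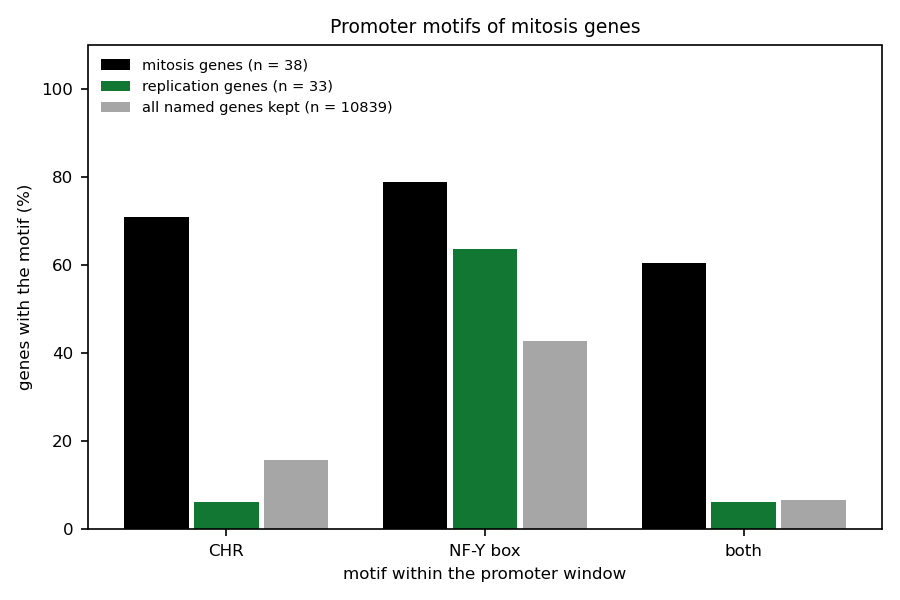
Share of genes (%) whose RefSeq promoter window holds CHR, the NF-Y box or both, for 38 mitosis genes (black), 33 replication genes (green) and 10839 kept named genes (grey). CHR is at 71.1%, 6.06% and 15.8% in these 3 sets.

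The promoters of KIF14, ASPM, CCNB2 and TOP2A are printed because they hold both motifs and these members had the smallest adjusted p against control among those that do. Capitals mark CHR and CCAAT on either strand, so that TTCAAA and ATTGG are the same motifs read from the other strand. The windows are at chr1:200620702-200621001 (-), chr1:197146620-197146919 (-), chr15:59104896-59105195 (+) and chr17:40417847-40418146 (-), each written 5′ to 3′ along its gene. CHR begins at base 1 after the start of KIF14, at -113 in ASPM and at -29 in CCNB2. TOP2A has 2 copies, at -194 and -151. Over all windows of the 38 genes, the 43 CHR matches had a median position of -28 and the 71 CCAAT matches a median of -79.
KIF14: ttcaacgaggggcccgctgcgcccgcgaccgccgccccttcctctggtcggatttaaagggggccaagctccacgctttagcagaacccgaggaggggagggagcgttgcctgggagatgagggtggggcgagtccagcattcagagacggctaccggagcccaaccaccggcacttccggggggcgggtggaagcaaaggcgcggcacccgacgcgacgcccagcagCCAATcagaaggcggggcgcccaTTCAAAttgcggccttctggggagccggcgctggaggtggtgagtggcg
ASPM: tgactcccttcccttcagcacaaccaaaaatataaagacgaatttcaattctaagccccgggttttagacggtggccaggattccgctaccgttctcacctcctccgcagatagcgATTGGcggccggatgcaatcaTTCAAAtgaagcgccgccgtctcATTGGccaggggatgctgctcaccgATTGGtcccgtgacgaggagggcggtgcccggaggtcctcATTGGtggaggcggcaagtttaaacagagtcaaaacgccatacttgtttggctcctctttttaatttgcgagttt
CCNB2: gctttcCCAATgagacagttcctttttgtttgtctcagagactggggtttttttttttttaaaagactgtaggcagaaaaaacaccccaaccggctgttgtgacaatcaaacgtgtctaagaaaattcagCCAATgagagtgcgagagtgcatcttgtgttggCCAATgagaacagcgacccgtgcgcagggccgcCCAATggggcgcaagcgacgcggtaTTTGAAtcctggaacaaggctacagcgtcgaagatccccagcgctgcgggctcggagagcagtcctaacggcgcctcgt
TOP2A: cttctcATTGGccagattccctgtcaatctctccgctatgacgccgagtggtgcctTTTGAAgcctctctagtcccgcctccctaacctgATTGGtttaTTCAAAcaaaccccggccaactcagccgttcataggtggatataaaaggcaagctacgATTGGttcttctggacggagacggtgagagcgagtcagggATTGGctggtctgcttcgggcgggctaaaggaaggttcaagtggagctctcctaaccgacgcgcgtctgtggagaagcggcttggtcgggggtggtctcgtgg

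The values are spot intensities after normexp background correction and quantile normalization, on a log2 scale, and a difference of 1 on that scale is a doubling. The arrays detected 69.4% to 78.2% of 24460 probes. Of the colon epithelium markers with a probe, EPCAM, CDH1, KRT18, KRT20, CDX1, CDX2, VIL1 and LGR5 were detected on all 9 arrays and KRT19 on 1. Of the markers of other cells, PTPRC, COL1A1 and LUM were detected on none, COL3A1 on 1, CDH5 on 2 and VWF on 7. CD3E, CD14, CD68 and DCN were detected on all 9. Detection means only a value above the blank limit. KRT20 at 6.13 to 6.25 and CD3E at 5.94 to 6.07 were little above the undetected COL1A1 at 5.71 to 5.77. DICER1 was detected on all 9 arrays at 6.25 to 6.74, and where its probe lies relative to that exon is unknown here, so the level does not check the disruption. No group had a second array, so p-values measure only the spread left between these arrays, which may be technical.

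In the let7a and miR-17 pairs, each array lay closer to an array of the other miRNA than to its own partner. Over all features, the median absolute log2 difference was 0.0597 between the miR-200c pair and 0.0586 between the miR-21 pair. Within the let7a pair it was 0.102 and within the miR-17 pair 0.0907. The array labelled let7a methylated was closer to miR-17 native (0.0702). For miR-17 methylated the closer array was let7a native (0.0687). Such distances are mutual, so they do not show which arrays of these pairs, if any, depart from their labels. miR-17 methylated was also closer to miR-21 native (0.0765) than to its partner, as let7a native was to the control (0.0689). The labels were kept as given. Of the 2 pairs, the 2 methylated arrays were the ones left out. The modelled medians and most counts of tested calls are given with and without these 2 arrays. The slope between scanner gains was 0.409 or 0.41 except for miR-17 methylated, at 0.453, and its part in the results was not tested.

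The 43 mitosis genes lay lower than control on the miR-21 arrays and higher than control on the let7a and miR-17 arrays. Against the control array, their median log2 difference was -0.25 on both the native and the methylated miR-21 array. It was 0.22 and 0.27 on the arrays labelled let7a native and methylated, and 0.24 and 0.10 on those of miR-17. On the miR-200c arrays it was -0.12 and -0.15, except that the authors' deposited table put the methylated array at 0.30, where the median of all features lay at 0.55. Apart from that array each median kept its sign in the alternatives run, but some sizes moved: median scaling gave -0.19 for miR-200c native, 0.12 for let7a native and 0.13 for miR-17 native, blank subtraction gave -0.21 for miR-200c native, and the mean of a gene's probes gave 0.05 for the array labelled miR-17 methylated. The authors' deposited table gave -0.27 for miR-200c native, -0.41 for miR-21 native, 0.43 for the array labelled let7a methylated and 0.48 for miR-17 native. In the quantile-normalized values the median of all features stayed between 0.00 and 0.02 on every array. Fewer cells in mitosis and less of these mRNAs per cell cannot be told apart in such bulk RNA.

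Counted gene by gene, 37 and 35 of the 43 were below control on the native and methylated miR-21 arrays, where 48.3% and 47.2% of all features were. On the miR-200c arrays 31 and 33 were below control, against 44.4% and 45.2% of all features. On the let7a arrays only 8 and 5 were below, against 49.3% and 47.5%. On the miR-17 arrays 7 and 14 were below, against 45.4% and 46.3%. Both arrays of a miRNA were below control for 35 genes with miR-21 (35% of all features), for 26 with miR-200c (32.8%), for 5 with miR-17 (27.7%) and for 1 with let7a (27.7%). Both were above control for 31 genes with let7a (30.8%), 27 with miR-17 (35.9%), 6 with miR-21 (39.4%) and 5 with miR-200c (43.1%). CENPE, a kinetochore motor, and RACGAP1, a partner of the cytokinetic motor KIF23, were above control on all 8 arrays (11.2% of all features). MKI67 was below control on all 8 (6.9%). All 8 differences on which these counts rest share the 1 control array.

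**Figure D2:**
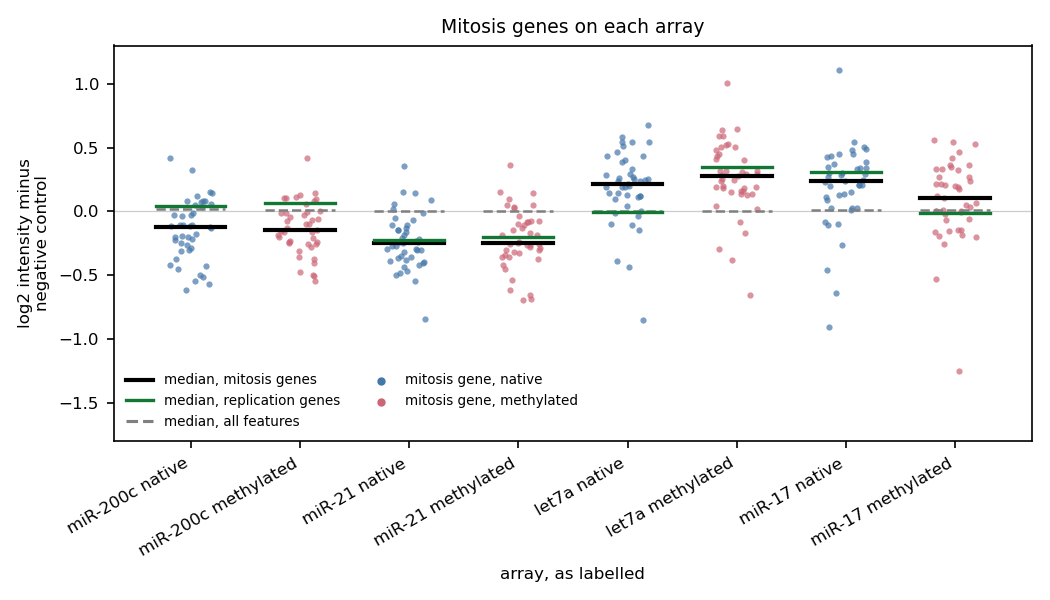
Log2 intensity minus the negative control (y axis) of each of the 43 mitosis genes (points) on the 8 miRNA arrays (x axis), with the medians of the mitosis genes (black), of 38 replication genes (green) and of all 16068 features (dashed). The black line is at -0.25 on both miR-21 arrays and at 0.10 to 0.27 on the let7a and miR-17 arrays. It is below 0 on the miR-200c methylated array here. In the authors' deposited table it is above 0 there, at 0.30, with the median of all features at 0.55.

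Genes of DNA replication and S phase, taken as a neighbouring list, lay elsewhere than the mitosis genes on some arrays. On the let7a native and the labelled miR-17 methylated arrays the 38 replication genes had a median difference of -0.01 and -0.01 from control, while the mitosis genes were at 0.22 and 0.10. On the miR-17 native array and the array labelled let7a methylated they were at 0.31 and 0.35, above the mitosis genes at 0.24 and 0.27. On the miR-21 arrays both lists were low, with replication genes at -0.22 and -0.20. The difference between the lists was not tested.

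In the model over the 9 arrays, which has the miRNA and the form of the oligonucleotide as terms, no mitosis gene passed the threshold of an adjusted p of 0.05 against control (limma, Benjamini-Hochberg over all 16068 features). With miR-200c minus control 0.112% of all features passed, and with each of the other 3 miRNAs minus control 0% passed. At an unadjusted p under 0.05, 6 mitosis genes passed for miR-200c (10.1% of all features), 4 for miR-21 (3.46%), 6 for let7a (3.78%) and 4 for miR-17 (3.89%). The median over mitosis genes of the modelled difference from control was -0.09 for miR-200c, -0.22 for miR-21, 0.22 for let7a and 0.15 for miR-17, and without the 2 arrays 0.21 for let7a and 0.24 for miR-17. The precision was limited: the 95% interval of such a difference reached 0.44 to either side for the median mitosis gene. The median residual SD of the mitosis genes, as moderated by limma with the intensity trend, was 0.150, against 0.108 over all features.

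Set against the mean of the other 3 miRNAs, a comparison that leaves the control array out, CCNB2, KIF14 and ASPM fell with miR-200c. These 3 of 43 passed at an adjusted p under 0.05 downward, where 2.01% of all features did, and no mitosis gene passed upward, where 1.1% did. With miR-21, let7a and miR-17 against the others no mitosis gene and 0% of all features passed. At an unadjusted p under 0.05, 20 mitosis genes passed for miR-21 (7.09% of all features), 21 for let7a (6.39%) and 14 for miR-17 (6.16%), while the 10 for miR-200c stood against 17.5%. The direction was nearly uniform: 42 of 43 were lower with miR-21 than with the other miRNAs, against 7884 of 16068 features, and 42 of 43 were higher with let7a, against 7135 of 16068. The medians were -0.19 for miR-200c, -0.26 for miR-21, 0.31 for let7a and 0.22 for miR-17, and those of all features lay between -0.01 and 0.01. Without the 2 arrays the medians were -0.20, -0.30, 0.32 and 0.32 in that order. A gene that is low with miR-21 is by construction part of the mean that let7a is set against. The 4 contrasts are therefore not separate evidence. Nor are the 43 genes separate observations, since most rose and fell together over the 9 arrays. The median correlation of a mitosis gene with the mean of the others was 0.79. For other features, that with the mean of the mitosis genes was -0.04. The 3 calls rested on few arrays: none passed without the miR-200c native, the miR-200c methylated, the miR-21 native or the miR-21 methylated array, with adjusted p from 0.131 to 0.533 and differences of -0.30 to -0.71. None passed in the authors' deposited table (adjusted p 0.243 to 0.559).

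Without the methylated arrays of let7a and miR-17, more genes passed, in a fit with 1 residual degree of freedom. In that fit let7a, miR-17 and the control had 1 array each, the spread came from the miR-200c and miR-21 pairs alone, and the lone arrays were assumed to vary like them. The 2 arrays were left out because of their values, which can itself lower the spread. The counts that follow are therefore a description of that setting. With miR-21 against the others 9 mitosis genes were lower, where 0.921% of all features were. They were SPC25, ANLN, NEK2, CDK1, NDC80, BIRC5, ASPM, KIF20A and BUB1. With let7a against the others NEK2, ASPM, SPC25 and CENPF were higher (1.9% of all features). With miR-17 against the others ANLN, CCNA2, KIF14, PLK1 and ASPM were higher (2.67%) and PBK and KIF23 lower (3.88%). With miR-200c against the others 10 were lower (7.98%). Against control, KIF14, ANLN and ASPM were lower with miR-200c (5.06%), and with miR-17 CCNA2 was higher (0.666%) and PBK lower (1.67%).

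**Figure D3:**
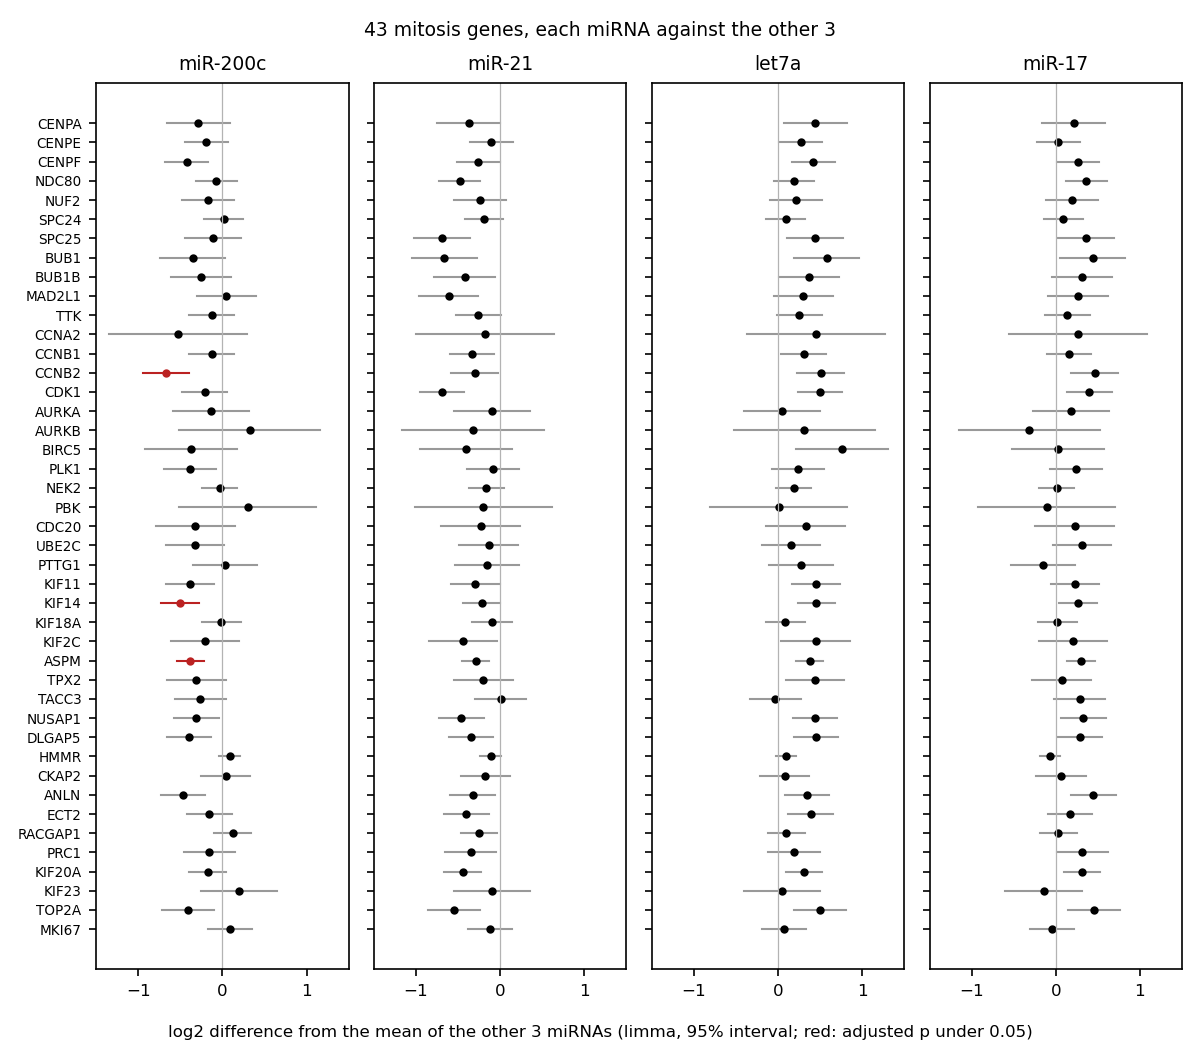
Log2 difference (x axis) of each of 43 mitosis genes (y axis, ordered by function) between the arrays of a miRNA and those of the other 3, with 95% intervals from the model on all 9 arrays. CCNB2, KIF14 and ASPM, in red in the miR-200c panel, have an adjusted p under 0.05. In the miR-21 panel 42 of 43 points are below 0, and in the let7a panel 42 are above.

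The values of single genes follow by function. They are log2 intensities, and in each pair the native array comes first and the methylated array second, as labelled.

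The cyclins and CDK1 form the kinase that drives entry into mitosis. CCNB2, a B-type cyclin, stood at 10.24 on the control array, 9.72 and 9.69 for miR-200c, 10.02 and 9.94 for miR-21, 10.50 and 10.67 for let7a, and 10.52 and 10.59 for miR-17. Both miR-200c arrays were the lowest of the 9, the miR-21 arrays came next, and all 4 let7a and miR-17 arrays were above control. CCNB2 fell by 0.67 with miR-200c relative to the other miRNAs (SE 0.12, adjusted p 0.0350). Against control its difference was -0.53 (SE 0.17, adjusted p 0.347), which does not pass. CDK1, the kinase itself, stood at 10.62 on the control array, 10.58 and 10.71 for miR-200c, 10.32 and 10.26 for miR-21, 11.16 and 11.21 for let7a, and 11.06 and 11.15 for miR-17. Here the miR-200c arrays were near control, the miR-21 arrays lowest and the 4 let7a and miR-17 arrays highest. For miR-21 against the others the difference in CDK1 was -0.69 (SE 0.11, adjusted p 0.360). CCNB1, the main mitotic cyclin, stood at 10.86 on the control array, 10.75 and 10.85 for miR-200c, 10.68 and 10.61 for miR-21, 11.15 and 11.10 for let7a, and 11.06 and 10.96 for miR-17, with the miR-21 arrays again lowest and the let7a and miR-17 arrays highest. Another CCNB1 probe had the same sign of difference from control on only 5 of 8 arrays, with -0.75 on miR-200c native and -0.80 on let7a native, so the level of CCNB1 depends on the probe.

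CCNA2, which acts in S phase and G2, departed from the B-type cyclins and CDK1. It stood at 9.41 on the control array, 9.19 and 9.39 for miR-200c, 9.55 and 9.56 for miR-21, 9.65 and 10.41 for let7a, and 10.51 and 9.26 for miR-17. The arrays labelled miR-17 native and let7a methylated were 1.11 and 1.003 above control and the other 6 miRNA arrays lay between -0.22 and 0.24 from it. With all arrays the miR-17 pair disagreed, and the modelled difference from control was 0.48 (SE 0.52, adjusted p 0.9996).

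**Figure D4:**
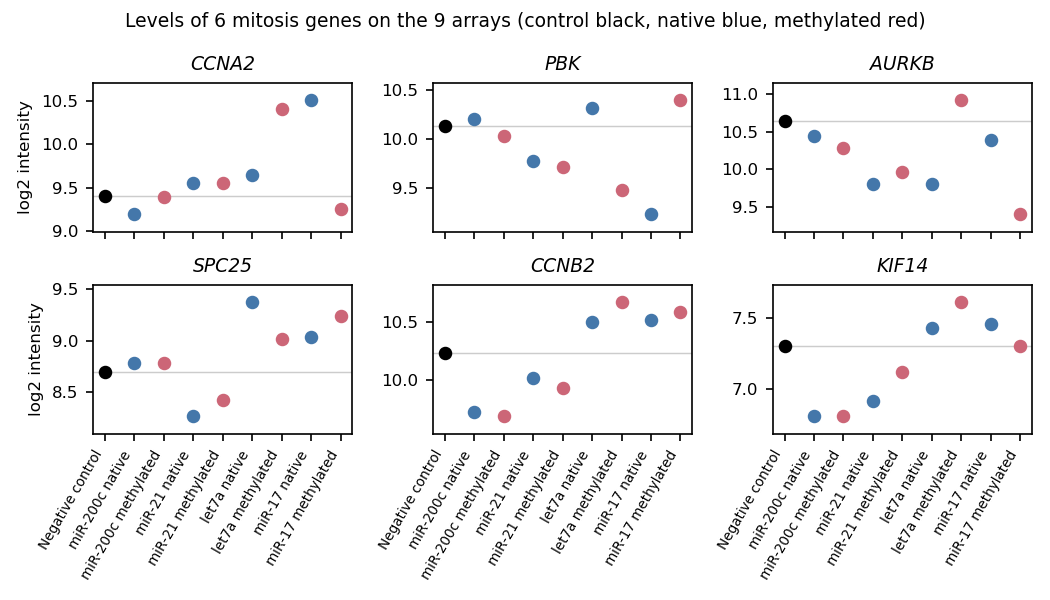
Log2 intensity (y axis, its own range in each panel) of 6 mitosis genes on the 9 arrays (x axis), with a grey line at the control level. CCNB2 and KIF14 are lowest on the miR-200c arrays, SPC25 is lowest on the miR-21 arrays, and CCNA2, PBK and AURKB differ within the let7a and miR-17 pairs.

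Kinetochore and centromere proteins join chromosomes to microtubules. Of 7 such genes, 6 were below control on each miR-21 array, and 7 and 6 were above control on the arrays labelled let7a native and methylated. On the miR-17 arrays 6 and 6 were above. SPC25, a subunit of the NDC80 complex that grips the microtubule, stood at 8.70 on the control array, 8.78 and 8.78 for miR-200c, 8.27 and 8.42 for miR-21, 9.38 and 9.02 for let7a, and 9.04 and 9.24 for miR-17. The miR-21 arrays were the lowest, the miR-200c arrays near control and the let7a native array the highest. For miR-21 against the others SPC25 differed by -0.69 (SE 0.14, adjusted p 0.395). CENPF, a large outer kinetochore protein, stood at 7.31 on the control array, 7.08 and 6.84 for miR-200c, 6.99 and 7.18 for miR-21, 7.70 and 7.49 for let7a, and 7.44 and 7.51 for miR-17. All 4 miR-200c and miR-21 arrays were below control and the other 4 miRNA arrays above it, and with let7a against the others it differed by 0.42 (SE 0.11, adjusted p 0.604). CENPE differed from that, since it was 0.06 to 0.58 above control on all 8 arrays, but another CENPE probe had the same sign on 5 of 8.

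Spindle checkpoint kinases and their partners hold back anaphase until chromosomes are attached. All 4 genes, BUB1, BUB1B, MAD2L1 and TTK, were below control on both miR-21 arrays and above control on all 4 let7a and miR-17 arrays. The share of all features with that pattern was not counted. BUB1, a kinase at the kinetochore, stood at 8.60 on the control array, 8.34 and 8.34 for miR-200c, 8.30 and 7.91 for miR-21, 8.84 and 9.24 for let7a, and 9.03 and 8.84 for miR-17. The widest gap was between the miR-21 methylated and the let7a methylated arrays. For miR-21 against the others its difference was -0.67 (SE 0.16, adjusted p 0.465). BUB1B, which encodes the checkpoint protein BUBR1, stood at 8.74 on the control array, 8.73 and 8.58 for miR-200c, 8.50 and 8.56 for miR-21, 8.86 and 9.39 for let7a, and 9.09 and 9.07 for miR-17. Its let7a and miR-17 values were all above control and its miR-21 values the lowest. MAD2L1, a checkpoint inhibitor of CDC20, was 0.42 and 0.11 above control on the miR-200c arrays. A TTK probe other than the one shown agreed in sign on 5 of 8 arrays.

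Mitotic kinases and the chromosomal passenger complex spread from -1.25 to 0.51 around control on the let7a and miR-17 arrays. AURKB, the catalytic subunit of the passenger complex, stood at 10.65 on the control array, 10.44 and 10.29 for miR-200c, 9.80 and 9.96 for miR-21, 9.80 and 10.92 for let7a, and 10.39 and 9.40 for miR-17. It was 0.27 above control on the array labelled let7a methylated and below control on the other 7, with differences of -0.85 for let7a native and -1.25 for the array labelled miR-17 methylated. PBK, a kinase active in mitosis, stood at 10.13 on the control array, 10.21 and 10.03 for miR-200c, 9.78 and 9.72 for miR-21, 10.32 and 9.48 for let7a, and 9.23 and 10.40 for miR-17. Its lowest values were on the arrays labelled miR-17 native and let7a methylated, the same arrays on which CCNA2 was highest. With miR-17 relative to control PBK differed by -0.32 (SE 0.51, adjusted p 0.9996) in the model. BIRC5, or survivin, a passenger subunit, was 0.34, 0.51 and 0.27 above control on the arrays labelled let7a native, let7a methylated and miR-17 native and -0.53 from it on that labelled miR-17 methylated. AURKA, a centrosomal kinase, stood at 9.53 on the control array, 9.32 and 9.27 for miR-200c, 9.36 and 9.29 for miR-21, 9.14 and 9.73 for let7a, and 9.73 and 9.34 for miR-17. It was above control by 0.20 on let7a methylated and by 0.20 on miR-17 native, and below control on the other 6. PLK1, a kinase with roles from entry to cytokinesis, stood at 7.10 on the control array, 6.65 and 6.92 for miR-200c, 7.09 and 6.93 for miR-21, 7.11 and 7.39 for let7a, and 7.40 and 7.11 for miR-17. Its 2 highest values were on those same arrays and its lowest was on miR-200c native.

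Genes of anaphase promotion act with the APC/C, the ubiquitin ligase that ends mitosis. CDC20, its activator, stood at 10.65 on the control array, 10.34 and 10.25 for miR-200c, 10.38 and 10.35 for miR-21, 10.51 and 11.05 for let7a, and 10.95 and 10.45 for miR-17. It was above control on the arrays labelled miR-17 native and let7a methylated and below control on the other 6. UBE2C, its ubiquitin-conjugating enzyme, stood at 10.11 on the control array, 9.99 and 10.06 for miR-200c, 10.20 and 10.14 for miR-21, 10.54 and 10.24 for let7a, and 10.35 and 10.66 for miR-17. Its highest values were on the miR-17 methylated and let7a native arrays, so that it and CDC20 were high on different arrays. PTTG1, or securin, stayed within -0.37 to 0.20 of control.

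Motors of the spindle and chromosomes slide and trim microtubules. KIF14, a kinesin of late mitosis, stood at 7.30 on the control array, 6.80 and 6.80 for miR-200c, 6.91 and 7.12 for miR-21, 7.43 and 7.61 for let7a, and 7.46 and 7.30 for miR-17. The miR-200c arrays were the lowest, followed by the miR-21 arrays, and all 4 were below control. KIF14 fell by 0.50 with miR-200c relative to the other miRNAs (SE 0.09, adjusted p 0.0431), and its difference from control was -0.50 (SE 0.14, adjusted p 0.269). KIF2C, a microtubule depolymerase, stood at 8.47 on the control array, 8.22 and 8.31 for miR-200c, 8.16 and 8.01 for miR-21, 8.45 and 9.06 for let7a, and 8.68 and 8.47 for miR-17. It was highest on the array labelled let7a methylated, and another probe of it agreed in sign on 6 of 8 arrays. KIF11, the motor that separates the spindle poles, was 0.21 to 0.54 above control on the 4 let7a and miR-17 arrays, while KIF18A stayed within -0.16 to 0.15.

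Spindle assembly factors nucleate and bundle microtubules. ASPM, a spindle pole protein, stood at 7.06 on the control array, 6.69 and 6.75 for miR-200c, 6.82 and 6.75 for miR-21, 7.35 and 7.22 for let7a, and 7.27 and 7.18 for miR-17. All miR-200c and miR-21 arrays were below control and all let7a and miR-17 arrays above it. ASPM fell by 0.38 with miR-200c relative to the other miRNAs (SE 0.07, adjusted p 0.0391), and its difference from control was -0.34 (SE 0.10, adjusted p 0.299). With let7a relative to the others it differed by 0.37 (SE 0.07, adjusted p 0.534). NUSAP1, a microtubule bundling protein, stood at 9.49 on the control array, 9.47 and 9.46 for miR-200c, 9.36 and 9.34 for miR-21, 10.04 and 10.02 for let7a, and 10.03 and 9.86 for miR-17. The miR-200c arrays were near control and the 4 let7a and miR-17 arrays were 0.37 to 0.55 above it. DLGAP5, which stabilizes kinetochore fibres, stood at 8.17 on the control array, 7.99 and 7.97 for miR-200c, 7.94 and 8.10 for miR-21, 8.61 and 8.62 for let7a, and 8.61 and 8.37 for miR-17, with the let7a and miR-17 arrays again highest. A further DLGAP5 probe agreed in sign on 7 of 8 arrays. TACC3, a clathrin-binding spindle protein, departed from the group, since it was 0.35 and 0.14 above control on the miR-21 arrays. HMMR and CKAP2 stayed within -0.11 to 0.13 and within -0.27 to 0.16.

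Cytokinesis genes build the midzone and the contractile ring. ANLN, an actin-binding ring protein, stood at 7.39 on the control array, 6.82 and 7.01 for miR-200c, 6.99 and 7.06 for miR-21, 7.53 and 7.52 for let7a, and 7.77 and 7.43 for miR-17. It was below control on all miR-200c and miR-21 arrays and above it on the others. With miR-200c against the other miRNAs it differed by -0.47 (SE 0.11, adjusted p 0.0855). ECT2, the exchange factor that activates RHOA, stood at 8.26 on the control array, 7.85 and 8.02 for miR-200c, 7.85 and 7.65 for miR-21, 8.38 and 8.30 for let7a, and 8.29 and 8.07 for miR-17. The miR-21 methylated array was the lowest, and the let7a arrays and the miR-17 native array were 0.02 to 0.12 above control. The other ECT2 probe agreed in sign on all 8 arrays. KIF23 was -0.46 and -0.38 from control on the arrays labelled miR-17 native and let7a methylated, the arrays on which PBK was lowest. PRC1 and KIF20A, a midzone bundler and a midzone kinesin, were below control on all miR-200c and miR-21 arrays.

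TOP2A and MKI67 act on mitotic chromosomes themselves. TOP2A, the topoisomerase that untangles sister chromatids, stood at 9.16 on the control array, 8.73 and 8.65 for miR-200c, 8.66 and 8.51 for miR-21, 9.39 and 9.35 for let7a, and 9.18 and 9.49 for miR-17. All miR-200c and miR-21 arrays were at least 0.43 below control and the other 4 were 0.02 to 0.33 above it, and another TOP2A probe agreed in sign on all 8. With miR-21 minus control the difference was -0.57 (SE 0.19, adjusted p 0.9999). MKI67, the proliferation marker that coats chromosomes, stood at 7.78 on the control array, 7.23 and 7.62 for miR-200c, 7.30 and 7.24 for miR-21, 7.34 and 7.48 for let7a, and 7.14 and 7.52 for miR-17. It was highest on the control array and 0.16 to 0.64 below it on the 8 others. No other mitosis gene was below control on all 8, and these differences share the 1 control array.

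**Figure D5:**
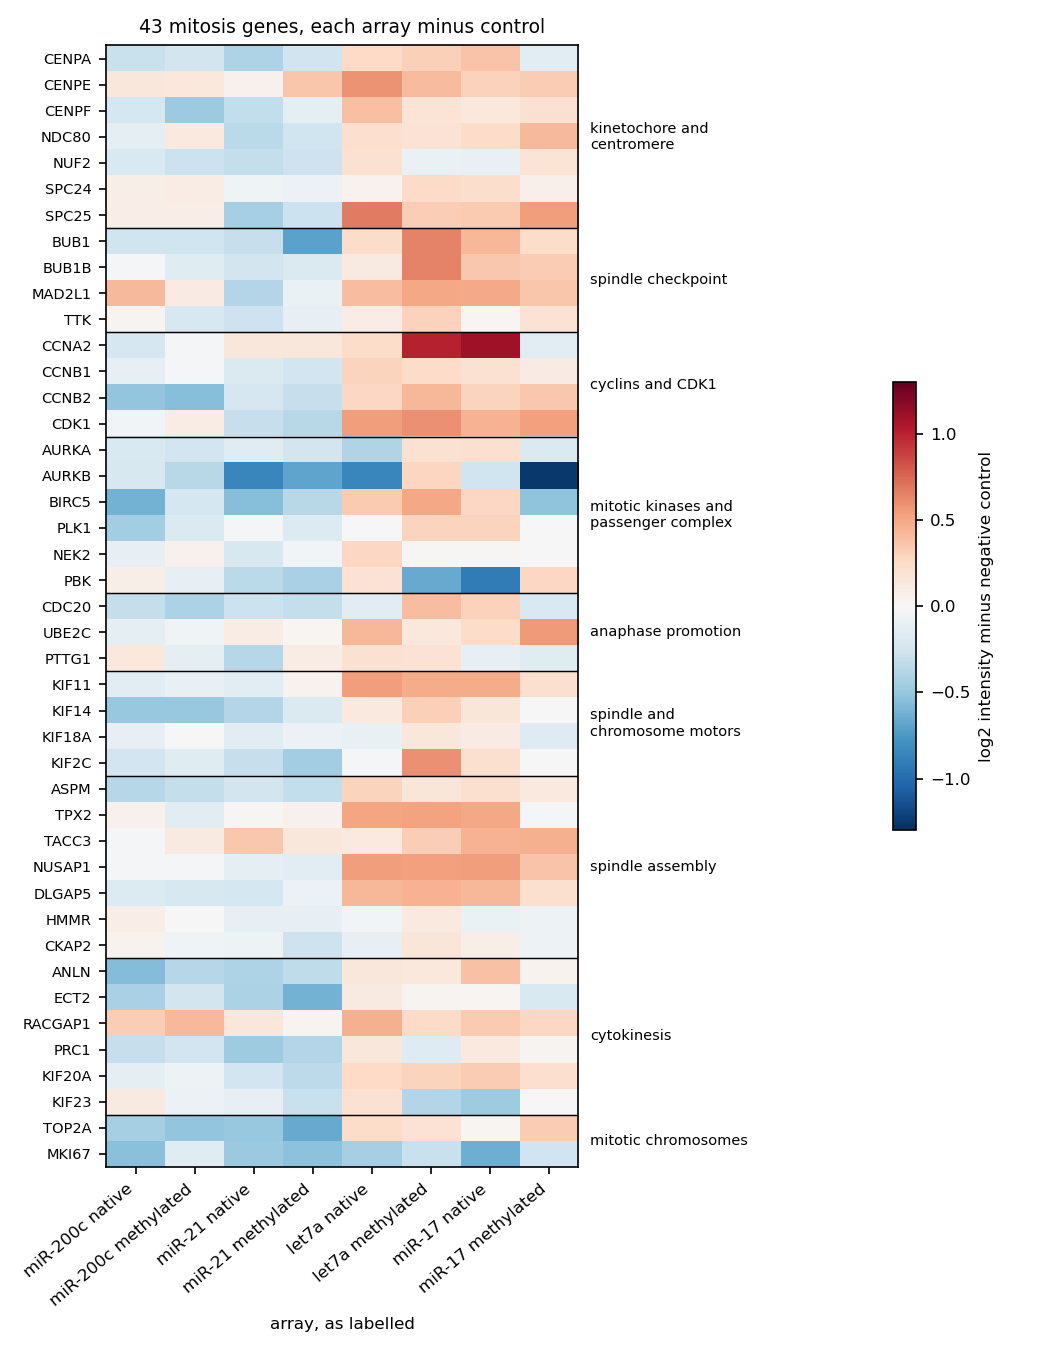
Log2 intensity minus the negative control (colour) of 43 mitosis genes (rows, by function) on the 8 miRNA arrays (columns, as labelled). Blue prevails in the miR-21 columns (37 and 35 genes below control) and red in the let7a columns (8 and 5 below). In the authors' deposited table the miR-200c methylated column had 6 genes below control, not the 33 seen here. On that array the deposited table put the median of all features at 0.55, and 35 of the 43 genes lay below that median.

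No difference between methylated and native oligonucleotides was called in these genes. Over the 4 pairs no mitosis gene and 0% of all features passed (limma), and at an unadjusted p under 0.05 it was 0 of 43 mitosis genes and 0.685% of features. The median difference, methylated minus native, was 0.01 in the miR-200c pair and 0.00 in the miR-21 pair. No mitosis gene differed by 0.5 or more within either pair, where 1.14% and 0.635% of all features did. The median difference was 0.03 in the let7a pair and -0.09 in the miR-17 pair. There 8 and 6 genes differed by at least 0.5 (6.17% and 5.89% of all features). The smallest unadjusted p was that of MKI67, at 0.0620, with a difference of 0.21 (SE 0.10, adjusted p 0.99998). The 95% interval of the modelled difference, before any adjustment, reached 0.25 to either side for the median mitosis gene. Smaller effects of methylation could be missed, and larger ones too after adjustment over all features. Without the 2 arrays that went against their labels no mitosis gene passed, where 0.0187% of all features were higher, and the median difference was -0.01.

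The same comparisons were made for other genes of the pathway, listed by role. In miR-200c against the other miRNAs, 1 of 18 other spindle, motor and cytokinesis genes fell, CEP55, a midbody protein, by 0.70 (SE 0.14, adjusted p 0.0490). Of 22 genes of entry, exit and the APC/C, 1 fell there, CDC27, an APC/C subunit, by 0.61 (SE 0.09, adjusted p 0.0252). Over all 6 lists this was 2 of 136 genes, or 1.47%, against 2.01% of all features lower in that contrast. None of 32 other kinetochore genes, 13 condensin, cohesin and separase genes, 13 transcription factor genes and 38 replication genes passed in any contrast (limma). The median of the 32 other kinetochore genes was -0.14 and -0.09 from control on the miR-21 arrays and 0.15 and 0.19 on the let7a arrays, on the same sides as the mitosis genes. FOXM1, a transcription factor of mitotic genes, was -0.26, -0.49, -0.43, -0.42, -0.20, 0.15, 0.20 and 0.02 from control in the pairs of miR-200c, of miR-21, of let7a and of miR-17, native first. MYBL2, its partner, was -0.14, -0.21, -0.21, -0.35, -0.14, 0.43, 0.14 and 0.14 from control in that order. Neither passed in any contrast.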

How the data were processed

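Spot intensities were the raw medians at 635 nm before any background subtraction, per the file headers. The authors also deposited a table of processed intensities, on a linear scale and with a median of 25 in every column; the steps behind it are not stated, and it served as an alternative. Of 24460 probes, 20236 had a single gene symbol in the platform annotation, with 2943 updated through synonyms in a gene table of GRCh38.p14. CDK1 and NDC80 were matched through earlier names.

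From the deposited intensities, log2 values were computed with limma 3.58.1 in R 4.3.3: normexp with offset 50, quantile normalization, and removal of 19 probes with an outlier mark. Probes above the blank mean plus 2 SD on at least 5 arrays were kept (17679 probes), and the brightest probe stood for a gene. Detection limits were 35.4 to 54.3 per array.

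An additive limma model over the 9 arrays (miRNA and form, intensity trend, 3 residual degrees of freedom) gave 9 contrasts, with Benjamini-Hochberg adjustment over all 16068 features and a threshold of 0.05. The lone control array was assumed to vary like the others. Every adjusted p in the text is limma's. Single arrays were compared without a test, and 0.5 on the log2 scale was the size counted. The miRNA term pairs the native and methylated array of a miRNA by their labels. The fit was tested on simulated data.

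The members and lists were chosen with earlier results of these data known. Genes named with all values were those past the threshold, the 2 of widest range in each function group, and CCNB1, CDK1, CDC20, PLK1, AURKA, BUB1B, TOP2A and MKI67; other members appear by ranges or were named after their values were seen.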

Additional observations from a re-analysis of the deposited data

Results flagged for a closer look

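In 3 mitosis genes the difference between methylated and native arrays had opposite signs in the let7a and the miR-17 pair. Its size was at least 0.5 on the log2 scale in both. The share of all features that did so was not counted. Within the let7a pair 6.17% of all features were at least 0.5 apart, and within the miR-17 pair 5.89%. Each pair is 1 array against 1, and this difference between pairs was not tested. CCNA2, a cyclin of S phase and G2, was 0.76 higher on the methylated array in the let7a pair and -1.26 from the native array in the miR-17 pair. AURKB, the Aurora kinase of the passenger complex, differed by 1.12 and -0.99 in the same order, and PBK, a mitotic kinase, by -0.84 and 1.17. In both pairs each array lay closer to an array of the other miRNA than to its own partner. The part of this in these 3 genes was not tested. No group has a second array, so no group could be searched for an outlying array.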

How the results depend on the processing

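The alternatives were median scaling, subtraction of the blank mean, a normexp offset of 16 and 2 other detection filters. The mean of a gene's probes, the authors' deposited table and a fit with no intensity trend were also used. Each miRNA array was left out in turn, and the methylated arrays of let7a and miR-17 were left out together. The medians and counts for mitosis genes moved in 20 recomputed values and stayed near in 433. A median stayed near if it shifted by less than a typical standard error, such as 0.18 for a modelled difference from control. That margin is about as large as many of these medians, so staying near is a loose rule. A count stayed near if it was equal or of similar size. With median scaling, 13 genes were below control on the miR-17 native array. The authors' deposited table shifted the median of all features by 0.55 on the miR-200c methylated array and by 0.26 on miR-17 native. There the mitosis genes had medians of 0.30 (6 below control) and 0.48, which are -0.25 and 0.23 relative to all features. In that table the median was -0.47 for miR-21 against the other miRNAs, 0.13 for methylated minus native, 0.59 within the miR-200c pair and -0.34 within the miR-17 pair. For methylated minus native, ASPM and ECT2 turned to 0.052 and 0.0322 there, and 0 genes passed for miR-200c against the other miRNAs. Without the intensity trend 1 passed. Leaving out 1 array at a time gave 0 to 4, with 0 for each of the 4 miR-200c and miR-21 arrays. Single calls were also lost for CCNB2 with median scaling (adjusted p 0.0618), for ASPM without the miR-17 native array (0.0506) and, without the trend, for ASPM (0.0529) and KIF14 (0.0774); the cause was not tested. Without the 2 arrays, in a fit whose spread came from the miR-200c and miR-21 pairs alone, 3 passed for miR-200c and 2 for miR-17 against control, and against the others 10 for miR-200c, 9 for miR-21, 4 for let7a and 7 for miR-17. Without the miRNA term, that is with no replicate block between native and methylated arrays, 0 genes passed for methylated minus native and the median was -9e-04. Shares of promoters with CHR were 68.4% with TTTGAA alone and 65.8% from 100 before to 50 after the start. A scan date or slide block was not run, since the headers used give none.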
